A study of Drosophila melanogaster with 11 samples.

Results

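The genes of the Hedgehog pathway and its posterior selectors were followed by RNA sequencing in wing discs and salivary glands of Drosophila melanogaster larvae. They were taken by symbol from the table of counts per gene and are 8 of its 16034 entries. They are hh, ptc, ci, smo, en, inv, fu and Su(fu). The study set larvae homozygous for the dCap-D3 allele c07081 (w;dCap-D3c07081/c07081) against wild-type w1118 larvae, at the 3rd instar and 25 C. The dCap-D3 protein belongs to condensin II, which folds and compacts chromosomes, and the c07081 allele is a piggyBac transposon insertion carried in all cells of the mutant. There were 2 mutant and 3 wild-type wing disc samples of 150 pooled tissues each, and 3 mutant and 3 wild-type salivary gland samples of 50 pooled tissues each. Separate cultures are not mentioned in the labels, so p-values measure only the spread between these samples, which may be technical.

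Hedgehog is a secreted signal that patterns the wing disc, the sheet of dividing diploid cells from which the adult wing and part of the thorax form. Cells of the posterior compartment express the homeodomain factors Engrailed and Invected, which turn on hh and keep ci off. Anterior cells express ci and receive the signal through Patched, a receptor that holds Smoothened inactive until Hedgehog binds. Active Smoothened signals through the kinase Fused and the inhibitor Suppressor of fused to the zinc finger factor Ci, and ptc is itself a target of Ci. The larval salivary gland is made of large polytene secretory cells with a ring of diploid imaginal cells at its base.

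Wing disc libraries held 59495487 to 157639957 counts and salivary gland libraries 52483185 to 70369254. Levels are given as CPM, a count relative to the library's total after TMM scaling across all 11 libraries. The limit that a count of 0 allows, 3 counts, was 0.0134 to 0.0323 CPM in wing disc libraries and 0.0635 to 0.0754 CPM in salivary gland libraries, for counting error only. Cap-D3 itself had 0.0728, 0.0847 and 0.0952 CPM in mutant salivary glands, against 6.54, 5.81 and 7.51 CPM in wild-type ones. In wing discs it had 1.86 and 1.62 CPM in the mutants, against 11.1, 8.10 and 19.6 CPM in the wild type. The groups did not overlap in either tissue. The sum of 10 salivary gland markers was 105.8 to 406.7 CPM in wing discs and 279600 to 502700 CPM in salivary glands. The prolyl hydroxylase gene PH4alphaSG1 was at 0 in all 3 wild-type wing disc libraries, and fkh was at 0 in wild-type replicate 1. Both mutant wing disc libraries had PH4alphaSG2 at 0. A sum of 7 gut markers was 0.849, 2.75 and 0.642 CPM in mutant glands, against 827, 6023 and 3.64 CPM in wild-type glands.

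In wing discs the posterior genes were strongly expressed in both genotypes. The selector gene en had 55.9 and 51.7 CPM in mutant discs, against 51.3, 36.0 and 60.1 CPM in wild-type discs. Its paralog inv had 59.5 and 59.2 CPM in mutant discs, against 54.9, 48.5 and 60.6 CPM in wild-type discs. The ligand gene hh had 46.8 and 43.8 CPM in mutant discs, against 44.1, 34.5 and 51.2 CPM in wild-type discs. Both mutant discs lay inside the wild-type range for each of these genes, with wild-type replicate 2 lowest and replicate 3 highest. In whole tissue, fewer cells of a type and less RNA per cell cannot be told apart.

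The genes ci, ptc and smo, which act in receiving the signal, spread further among wild-type discs. The transcription factor gene ci had 143.0 and 134.2 CPM in mutant discs, against 144.8, 85.8 and 356.2 CPM in wild-type discs. The receptor gene ptc had 43.9 and 39.8 CPM in mutant discs, against 46.4, 27.1 and 104.6 CPM in wild-type discs. The transducer gene smo had 61.3 and 58.6 CPM in mutant discs, against 63.1, 42.8 and 114.1 CPM in wild-type discs. The mutant discs again lay within the wild-type range, which for ci ran 4.15-fold from the lowest to the highest library and for the mutants 1.07-fold. The kinase gene fu had 23.6 and 22.5 CPM in mutant discs, against 24.3, 19.3 and 36.2 CPM in wild-type discs. The inhibitor gene Su(fu) had 60.4 and 64.5 CPM in mutant discs, against 58.5, 63.0 and 56.8 CPM in wild-type discs, and was the most even of the 8 among wild-type discs, with a coefficient of variation of 5.39%.

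**Figure D1:**
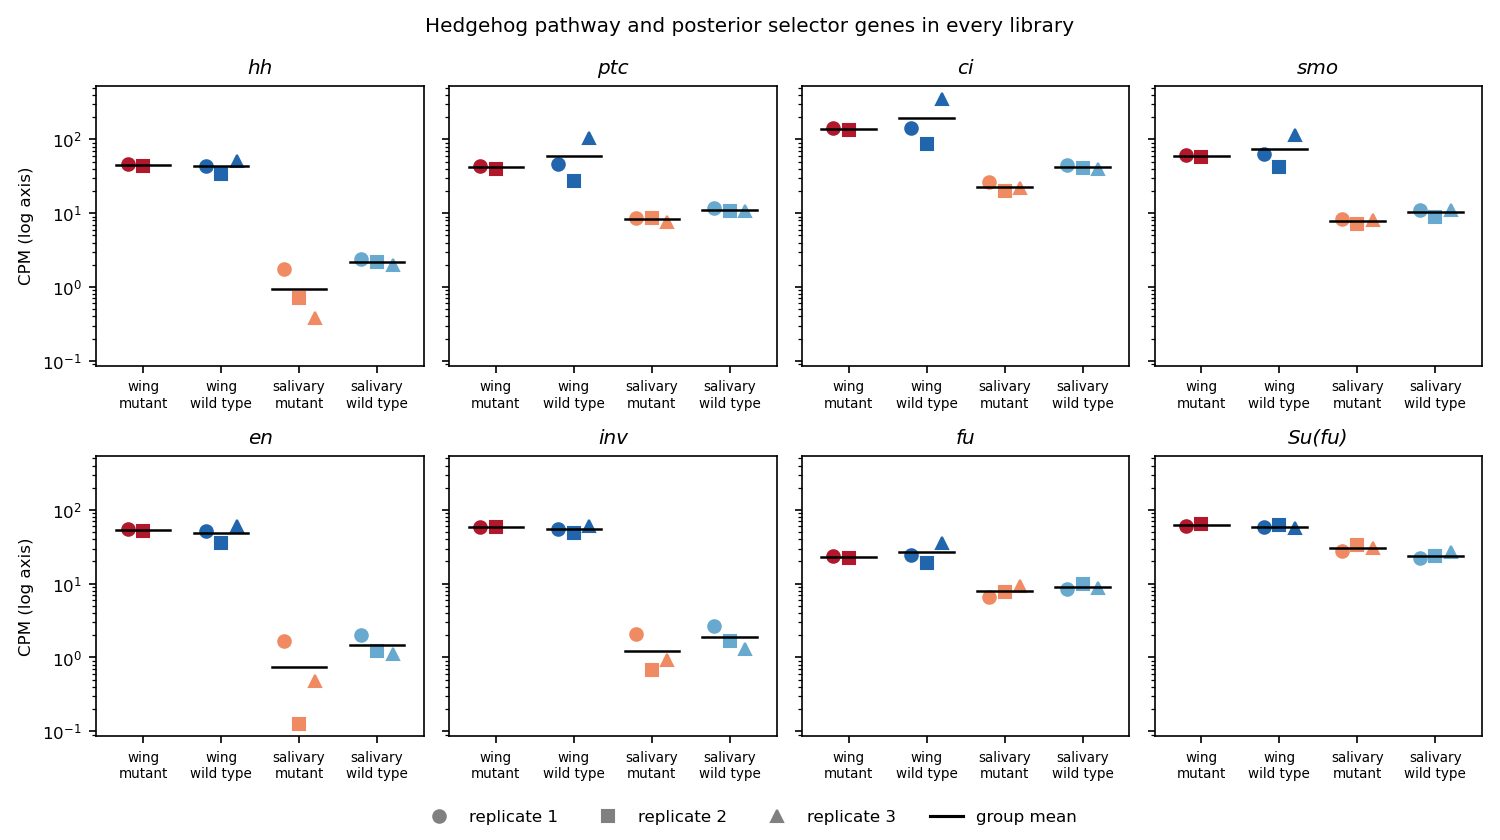
CPM of each of the 8 genes in every library on a logarithmic axis, in mutant and wild-type wing discs and mutant and wild-type salivary glands; each point is 1 library and the black line is the group mean. Mutant discs sit within the wild-type discs for 7 genes, and all 8 genes are lower in salivary glands, with ci at 19.7 to 26.5 CPM in mutant glands and 39.4 to 44.7 CPM in wild-type glands.

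Wild-type wing disc replicate 3 stood apart. It is library 59, where the other wing libraries are numbered 28 to 31, and the sources used here do not say whether it was made or sequenced separately. This library held 157639957 counts, where the other wing libraries held 59495487 to 65095670. It exceeded the higher of the other wild-type discs by 2.46-fold for ci, 2.26-fold for ptc, 1.81-fold for smo and 1.49-fold for fu. For the posterior genes the excess was 1.17-fold for en, 1.16-fold for hh and 1.10-fold for inv, and Su(fu) was at 0.901 times the higher of the others. Of the 9689 genes tested in wing discs, 25.0% lay more than 1.5-fold above both other wild-type discs in this library, and ci, ptc and smo were among them. Replicate 2 lay more than 1.5-fold below both others for 12.5% of genes, with ptc and ci among them. A sum of 6 fat body markers was 2711 and 1058 CPM in mutant discs, against 1080, 10150 and 2180 CPM in wild-type discs, so it was highest in replicate 2, and its part in the lower values of that library was not tested.

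**Figure D2:**
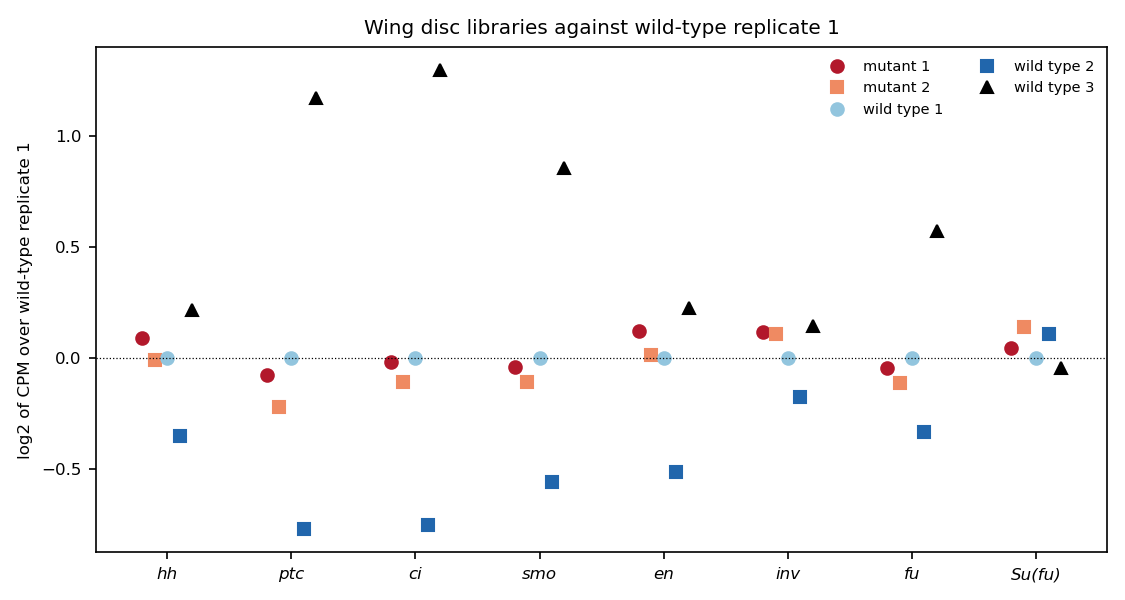
Log2 of the CPM of each gene in a wing disc library over that in wild-type replicate 1, for 2 mutant and 3 wild-type libraries; the dotted line marks equality. Wild-type replicate 3 is highest for 7 genes and farthest out for ci, and the mutant libraries lie between wild-type replicates 2 and 3 for those 7.

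Ratios between genes within a library, taken per kilobase of exon, showed the same split. The ratio of en to ci was 0.792 and 0.780 in mutant discs, against 0.717, 0.848 and 0.341 in wild-type discs. The ratio of hh to ptc was 2.49 and 2.57 in mutant discs, against 2.21, 2.96 and 1.14 in wild-type discs. Wild-type replicate 3 was the lowest in both, and the other libraries lay close together. The ratio of ptc to ci, 2 genes of the anterior compartment, was 0.314 and 0.303 in mutant discs and 0.328, 0.324 and 0.301 in wild-type discs, so it varied little even though each gene varied several-fold. The sum of 9 wing disc markers moved with these genes, at 626 and 574 CPM in mutant discs, against 622, 333 and 1323 CPM in wild-type discs. The part of this marker shift in the spread of ci, ptc and smo was not tested.

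None of the 8 genes was called changed between mutant and wild-type wing discs. A call was an adjusted p of at most 0.05 in edgeR's quasi-likelihood test (Benjamini-Hochberg, over all genes of the comparison), which called 0.475% of 9689 genes. No member had an unadjusted p under 0.05, and DESeq2 called none. The same test did not call Cap-D3, the mutated gene, at a log2 fold change of -2.75 ± 0.38 (adjusted p = 0.0916, edgeR). The log2 fold changes, mutant over wild type with standard errors, were 0.25 ± 0.21 for en, 0.23 ± 0.15 for inv and 0.19 ± 0.18 for hh. The 95% intervals of these posterior genes ran from -0.29 to 0.80 for en, from -0.16 to 0.62 for inv and from -0.27 to 0.64 for hh, so a doubling or halving lies outside each. The intervals were much wider for ci, at -0.33 with an interval from -1.73 to 1.08, and for ptc, at -0.34 with an interval from -1.67 to 0.99. Changes of the size seen for ci in salivary glands lie inside the wing disc interval. Without wild-type replicate 3 the signs turned, to 0.28 for ci, 0.20 for ptc, 0.19 for smo and 0.09 for fu, still with no call. The median over the 8 genes was 0.05, beside -0.03 over all genes tested.

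In salivary glands ptc and ci were lower in the mutant. The ci gene had 26.5, 19.7 and 22.2 CPM in mutant glands, against 44.7, 41.6 and 39.4 CPM in wild-type glands. The highest mutant library lay well below the lowest wild-type one. The log2 fold change was -0.96 ± 0.16 (adjusted p = 0.0187, edgeR quasi-likelihood test), a mutant level of 0.515 times the wild type. The ptc gene had 8.73, 8.62 and 7.71 CPM in mutant glands, against 11.9, 10.8 and 10.8 CPM in wild-type glands, again without overlap. Its log2 fold change was -0.50 ± 0.11 (adjusted p = 0.0396, edgeR quasi-likelihood test). These 2 calls among the 8 genes, both lower, stand beside 10.7% of 9006 genes called in either direction and 4.96% called lower. For ci the call held without mutant replicate 1 or wild-type replicate 3 and was lost without each of the other 4 libraries, with an adjusted p of up to 0.107 without mutant replicate 3. For ptc it held only without mutant replicate 1, and the adjusted p reached 0.174 without mutant replicate 3. In 1 fit of all 11 libraries neither was called (adjusted p = 0.223 for ci and 0.544 for ptc, edgeR).

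The other transducers were not called by edgeR, though the estimate for smo was close to that for ptc. The smo gene had 8.23, 7.12 and 8.11 CPM in mutant glands, against 10.9, 8.77 and 11.1 CPM in wild-type glands, and the groups did not overlap. Its log2 fold change of -0.47 ± 0.14 missed the threshold (adjusted p = 0.0829, edgeR quasi-likelihood test). The fu gene had 6.55, 7.71 and 9.35 CPM in mutant glands, against 8.51, 9.76 and 8.64 CPM in wild-type glands, and these overlapped (adjusted p = 0.317, edgeR). Su(fu) was the one member with a positive estimate, with 27.7, 33.4 and 30.3 CPM in mutant glands and 22.0, 23.5 and 26.6 CPM in wild-type glands. The Su(fu) groups did not overlap, and the log2 fold change was 0.26 ± 0.09 (adjusted p = 0.118, edgeR quasi-likelihood test). Groups without overlap were not counted over all genes, so a lack of overlap does not set any member apart. The ratio of Su(fu) to fu per kilobase was 8.62, 8.84 and 6.61 in mutant glands, against 5.27, 4.89 and 6.27 in wild-type glands, again with no overlap. DESeq2 called smo lower and Su(fu) higher beside ptc and ci, where it called 999 lower and 1092 higher of 9006 genes tested.

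The posterior genes were scarce in salivary glands and uneven among the mutants. The ligand gene hh had 1.75, 0.699 and 0.381 CPM in mutant glands, against 2.41, 2.20 and 1.96 CPM in wild-type glands. All 3 mutants lay below the wild type, but replicate 1 lay close to it. The log2 fold change was -1.29 ± 0.58 (adjusted p = 0.198, edgeR quasi-likelihood test), and without mutant replicate 1 it was -2.12 with an adjusted p of 0.0351. That was the 1 call among the 6 fits without 1 library. Their estimates ran from -2.12 to -0.87, with an adjusted p of up to 0.439 without mutant replicate 2 (edgeR). The selector en had 1.65, 0.127 and 0.476 CPM in mutant glands, against 2.02, 1.21 and 1.13 CPM in wild-type glands. The 3 mutant en values rest on 68, 6 and 20 counts and span 13.0-fold, and mutant replicate 1 overlapped the wild type. The paralog inv had 2.09, 0.678 and 0.928 CPM in mutant glands, against 2.66, 1.67 and 1.31 CPM in wild-type glands, with the same replicate overlapping. The log2 fold changes were -1.01 ± 0.88 for en (adjusted p = 0.482, edgeR) and -0.68 ± 0.54 for inv (adjusted p = 0.442, edgeR). The interval for en ran from -3.16 to 1.13, so these libraries do not tell a large fall from a rise. Of the 8 estimates, 7 were below 0, as were 4851 of the 9006 genes tested. The median of the 8 was -0.59, beside -0.04 over all genes tested. An unadjusted p under 0.05 was seen for ptc, ci and smo, with estimates below 0, for Su(fu), with one above 0, and for 29.4% of all genes tested.

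**Figure D3:**
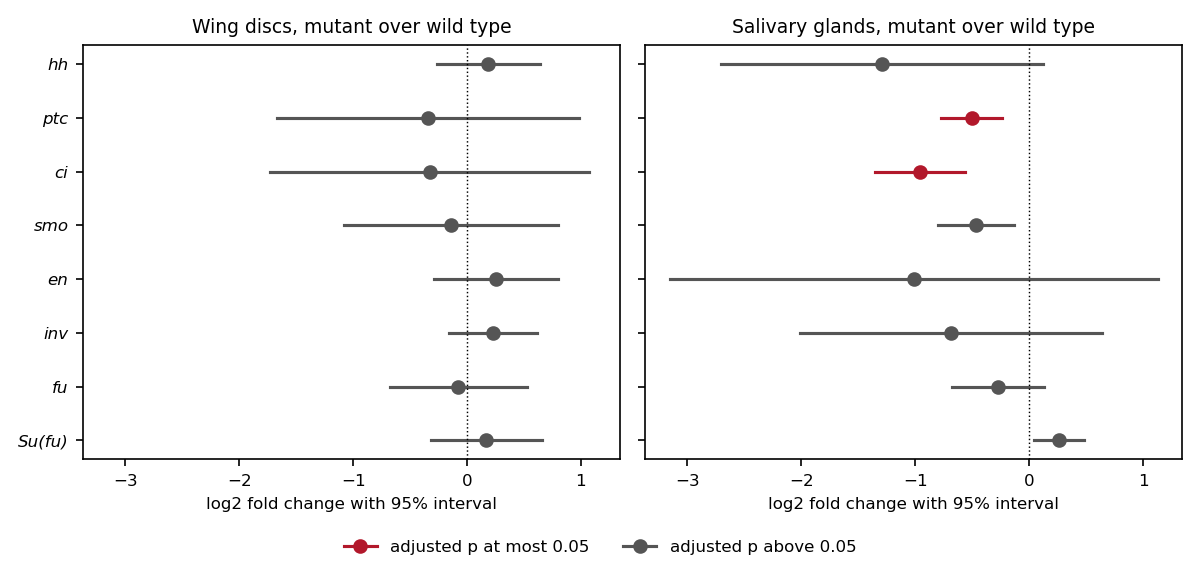
Log2 fold change of the mutant over the wild type with its 95% interval for each gene, in wing discs (left) and salivary glands (right) on 1 shared axis; red marks an adjusted p of at most 0.05. Only ptc (-0.50) and ci (-0.96) in salivary glands are red, and the salivary intervals of en, hh and inv are the widest of that tissue.

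Markers of disc cells and of other cell types were set beside these values. The sum of 6 markers of other imaginal discs (eya, so, ey, toy, gl and ato) was 15.2, 12.1 and 4.28 CPM in mutant glands, against 33.1, 46.5 and 25.4 CPM in wild-type glands, and eya and ato were called lower. The sum of 9 wing disc markers was 77.7, 84.0 and 74.2 CPM in mutant glands, against 101.1, 88.8 and 94.5 CPM in wild-type glands. Most of it came from ap and sd, with means of 21.8 and 40.5 CPM in mutant glands and 23.5 and 44.8 CPM in wild-type glands. The marker nub had 1.29, 0.0424 and 0.0238 CPM in mutant glands, against 1.76, 3.78 and 1.56 CPM in wild-type glands. The groups did not overlap for nub, rn, pdm2, wg and zfh2, and overlapped for vg, ap, sd and bi. None of the 9 was called, their estimates ran from -3.35 for pdm2 to -0.11 for bi, and pdm2 was at 0 in mutant replicate 3. The imaginal cell gene esg had 2.57, 0.635 and 1.09 CPM in mutant glands, against 4.83, 3.78 and 1.48 CPM in wild-type glands, and the groups overlapped. In esg, as in en, hh and inv and in every wing disc marker but sd, mutant replicate 1 was the highest of the mutants. A sum of 3 tracheal markers was 35.7, 35.2 and 32.3 CPM in mutant glands, against 72.6, 57.1 and 67.8 CPM in wild-type glands, with btl and pio called lower. The sum of 6 fat body markers was 191100, 131500 and 180800 CPM in mutant glands, against 143200, 93360 and 138100 CPM in wild-type glands. All 6 estimates were above 0, and Lsp1alpha (3.10 ± 0.33) and Fbp2 (2.49 ± 0.37) were called higher. Of 6 hemocyte markers, Hml (-1.65 ± 0.21) and Pxn (-1.36 ± 0.25) were called lower and NimC1 (1.75 ± 0.34) higher, while their sum was 103.1, 77.3 and 101.5 CPM in mutant glands, against 112.3, 77.0 and 99.4 CPM in wild-type glands. The part of these cell markers in the values of ptc, ci, hh and the pathway genes was not tested.

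**Figure D4:**
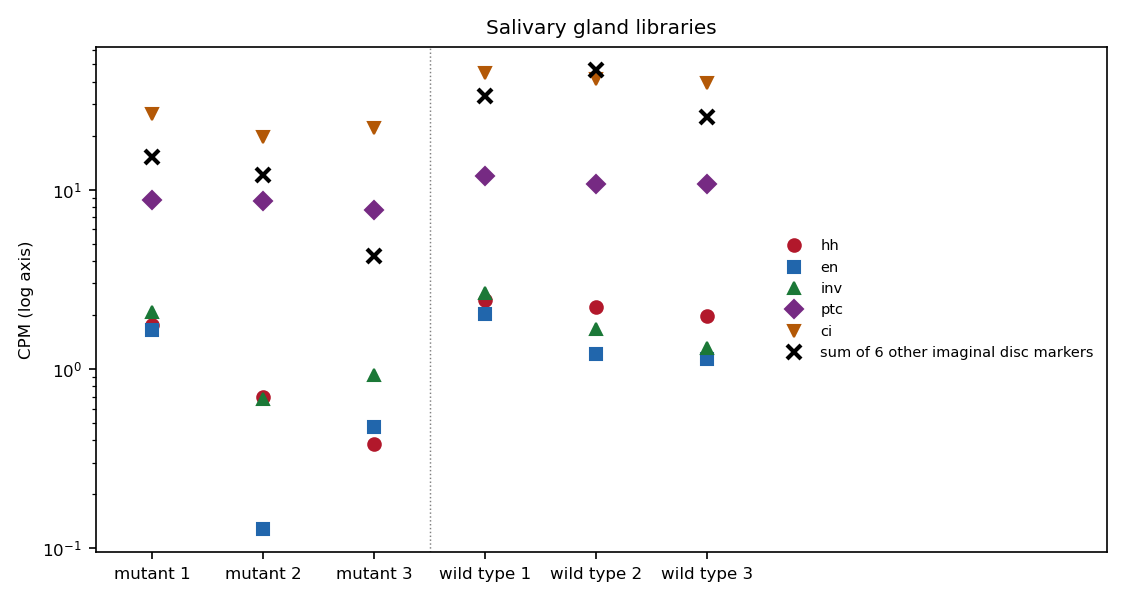
CPM of hh, en, inv, ptc and ci and the summed CPM of 6 markers of other imaginal discs in the 3 mutant and 3 wild-type salivary gland libraries, on a logarithmic axis. The ci points and the marker sum are lower in every mutant library than in every wild-type library, while en and inv overlap through mutant replicate 1.

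The ratio of hh to ptc per kilobase was 0.466, 0.189 and 0.115 in mutant glands, against 0.474, 0.475 and 0.423 in wild-type glands. Mutant replicate 1 lay among the wild type and the other mutants well below. The ratio of ptc to ci was 0.337, 0.448 and 0.355 in mutant glands, against 0.272, 0.266 and 0.281 in wild-type glands, and did not overlap, since ci was lower by more than ptc. The ratio of inv to en was 2.52 in mutant replicate 2, the library with 6 en counts, and below 1 in every other salivary gland library.

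The genotype effect was then compared between tissues with the interaction term of a fit to all 11 libraries, as wing disc minus salivary gland. None of the 8 was called, where 0.848% of 10850 genes were, no member had an unadjusted p under 0.05, and DESeq2 called none. The largest estimates were those of the posterior genes, 1.34 ± 0.63 for hh (adjusted p = 0.418, edgeR), 1.13 ± 0.94 for en and 0.77 ± 0.58 for inv. For ci it was 0.46 ± 0.60, with an interval from -0.91 to 1.82, so the effect on ci was not shown to differ between the tissues. Without wild-type wing disc replicate 3 the ci estimate was 1.195 (adjusted p = 0.116, edgeR) and that of ptc, -0.01 with all libraries, was 0.66 (adjusted p = 0.252, edgeR). Without salivary gland mutant replicate 1 the hh interaction was 2.17 and was called (adjusted p = 0.0186, edgeR). The hh interaction was called in only 1 of the 11 fits without 1 library, and its estimates there ran from 0.96 to 2.17.

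Between wild-type tissues all 8 genes were higher in wing discs. They were called higher under every alternative tried, beside 70.4% of 9720 genes called and 40.2% called higher, and their median log2 fold change, wing disc over salivary gland, was 2.39 against 0.28 over all genes tested. The posterior genes differed most, at 4.86 ± 0.33 for en, 4.66 ± 0.32 for inv and 4.09 ± 0.20 for hh (adjusted p = 1.30e-04, 1.28e-04 and 8.97e-05, edgeR). The signal-receiving genes came next, at 2.61 ± 0.36 for smo, 2.17 ± 0.46 for ptc and 1.98 ± 0.49 for ci. The cytoplasmic regulators differed least, at 1.35 ± 0.23 for fu and 1.11 ± 0.18 for Su(fu). Without wild-type wing disc replicate 3 the values were 1.28 for ci, 1.54 for ptc, 2.20 for smo and 1.11 for fu, all still called, and Su(fu), at 1.19, then exceeded fu. The wing libraries were directional and the salivary libraries non-directional, so tissue and library kind cannot be told apart. Scaling matters for the size: without scaling factors all genes moved by 1.26 on the log2 scale toward the wing disc, and the share of called genes that were higher was 77.7% in place of 57.1%. These comparisons share the wild-type libraries with those of the mutant.

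As a share of the wing disc mean, the salivary gland mean of en was 1.40% in mutants and 2.96% in wild type. The share of inv was 2.07% in mutants and 3.44% in wild type, and that of hh was 2.08% in mutants and 5.07% in wild type. For ptc it was 19.96% in mutants and 18.8% in wild type, and for ci 16.5% in mutants and 21.4% in wild type. Su(fu) had the highest share, 48.8% in mutants and 40.4% in wild type.

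**Figure D5:**
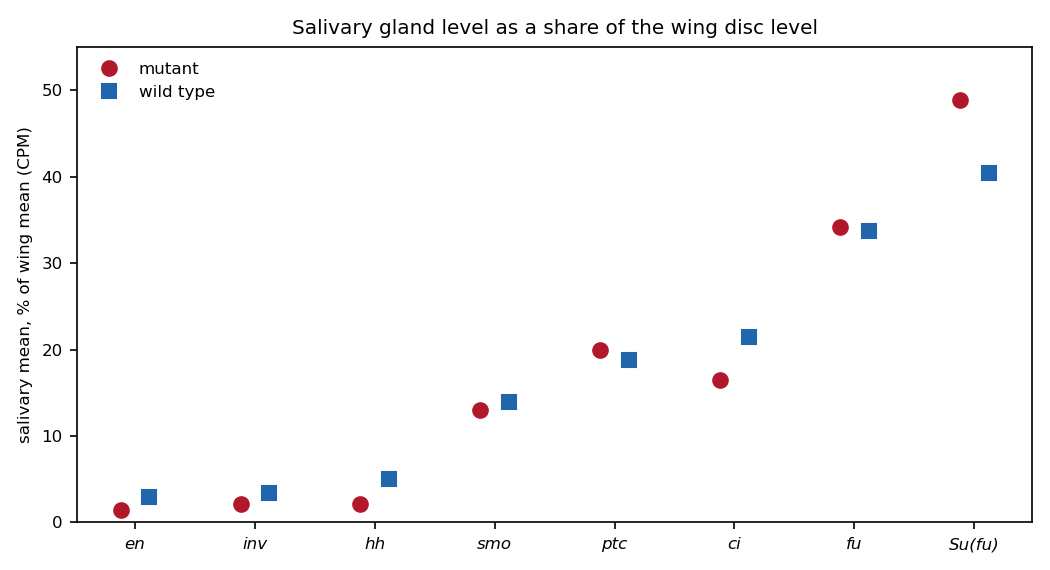
Mean CPM in salivary glands as a percentage of mean CPM in wing discs for each gene, for mutants (circles) and wild type (squares). The posterior genes en, inv and hh lie at 1.40% to 5.07%, and Su(fu) lies highest at 48.8% in mutants and 40.4% in wild type.

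Levels of different genes were ordered as mean CPM per kilobase of exon. In mutant wing discs Su(fu) was highest at 39.1, followed by ci at 24.5, en at 19.3, hh at 19.1, smo at 15.0, inv at 10.02, ptc at 7.58 and fu at 7.09. Only en and hh, and ptc and fu, overlapped as neighbours there. In wild-type wing discs every pair of neighbours overlapped, between 37.2 for Su(fu) and 8.18 for fu. Mutant salivary glands had Su(fu) at 19.1, ci at 4.04, fu at 2.42, smo at 1.95, ptc at 1.51, hh at 0.398, en at 0.269 and inv at 0.208, with overlap between fu and smo and among hh, en and inv as neighbours. Wild-type salivary glands had the same order, from 15.1 for Su(fu) and 7.42 for ci to 0.925 for hh, 0.521 for en and 0.317 for inv. There fu and smo overlapped, and en and inv. Su(fu) and ci thus led in all 4 groups, while en and hh were next in mutant wing discs and near the bottom in both salivary gland groups.

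The wider pathway was described through 29 genes in 5 lists. In salivary glands 4 of the 29 were called lower and none higher, beside 4.96% of all genes called lower and 5.71% called higher. The median was -0.10, against -0.04 over all genes tested. Of 8 genes for release and movement of the ligand, disp, which releases lipid-modified Hedgehog, was lower by a log2 fold change of -0.60 ± 0.11 (adjusted p = 0.0238, edgeR). The glypican gene dlp, which binds Hedgehog at the cell surface, had 10.2, 9.57 and 10.4 CPM in mutant glands, against 18.8, 20.6 and 18.0 CPM in wild-type glands. Its log2 fold change was -1.02 ± 0.12 (adjusted p = 0.00576, edgeR), and it was called whichever 1 library was left out, though not in 1 fit of all 11 libraries (adjusted p = 0.111, edgeR). The secreted factor gene shf, which stabilises Hedgehog in the matrix, was also lower, at -1.01 ± 0.22 (adjusted p = 0.0385, edgeR). Of 10 transduction genes, cos, the kinesin-like scaffold of the Fused and Ci complex, was lower at -0.66 ± 0.13 (adjusted p = 0.0298, edgeR). The calls of shf and cos were lost whichever 1 of the 6 libraries was left out, and that of disp without 5 of them. The coreceptor genes ihog (-0.44, adjusted p = 0.0761) and boi (-0.90, adjusted p = 0.0795, edgeR) were not called.

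No target gene of the list was called in salivary glands. The median of the 6 was -1.30, beside -0.04 over all genes tested, and 4 had an unadjusted p under 0.05, as had 29.4% of all genes. The Iroquois gene caup had 1.63, 0.508 and 0.190 CPM in mutant glands, against 2.88, 3.66 and 1.91 CPM in wild-type glands (log2 fold change -1.94, adjusted p = 0.164, edgeR). It was chosen for this comparison after its values were seen. The ligand gene dpp had 3.59, 3.05 and 2.64 CPM in mutant glands and 4.05, 4.43 and 3.82 CPM in wild-type glands (adjusted p = 0.159, edgeR). The Cul3 adaptor gene rdx, which promotes Ci degradation, had the one positive estimate among targets, 0.46 ± 0.16 (adjusted p = 0.116, edgeR). Of the Engrailed partners, the corepressor gene gro was at -0.02 ± 0.10 and the homeodomain cofactor gene exd at 0.28 ± 0.16, neither called.

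In wing discs 0 of the 29 were called by edgeR or DESeq2, none had an unadjusted p under 0.05, and the median was -0.06, beside -0.03 over all genes tested. The best expressed were ihog, at 218.8 and 221.1 CPM in mutant discs against 208.1, 163.1 and 311.8 CPM in wild-type discs, and exd, with an estimate of 0.17 ± 0.15. In the interaction edgeR called none, 2 had an unadjusted p under 0.05, and DESeq2 called shf. Of all 10850 genes tested there, DESeq2 called 323 higher and 293 lower. Between wild-type tissues 16 of the 29 were called higher and 6 lower in wing discs, beside 40.2% of all genes called higher and 30.2% called lower. Higher genes were led by the targets ara (4.38 ± 0.35) and caup (4.20 ± 0.46) and included the targets vn (3.63 ± 0.56), kn (3.51 ± 0.68) and dpp (2.87 ± 0.38). Also higher were ihog (3.67 ± 0.27), boi (3.42 ± 0.43), shf (3.07 ± 0.19) and cos (1.74 ± 0.40). The 6 lower ones were the kinase genes Pka-C1 (-2.38 ± 0.48), sgg (-1.95 ± 0.57) and CkIalpha (-1.14 ± 0.31), the ubiquitin ligase genes slmb (-2.16 ± 0.45) and Cul3 (-1.79 ± 0.49), and rdx (-1.41 ± 0.33). Without scaling factors none of these 6 was called, with Pka-C1 at -1.11 (adjusted p = 0.0692), slmb at -0.86 (0.0936), sgg at -0.66 (0.303), Cul3 at -0.49 (0.356), rdx at -0.12 (0.749, edgeR) and CkIalpha turned to 0.15. The calls of sgg, Cul3 and CkIalpha were also lost without wild-type salivary gland replicate 2 or 3 or wild-type wing disc replicate 1, with adjusted p of up to 0.0717 for sgg, 0.0637 for Cul3 and 0.0753 for CkIalpha (edgeR). Of the 16 higher genes, the calls of ttv, dally, gro, exd and hth were lost in 3 or more of the 6 fits without 1 library. All 6 act in the phosphorylation or degradation of Ci, and the kinases and ubiquitin ligases serve many other pathways.

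Across the 11 libraries, the genes whose log2 CPM was most like that of hh were blow, CG6398 and tw (Pearson r of 0.9992, 0.999 and 0.9987). For en they were Kebab, ald and CR43685, with r of 0.9985, 0.9982 and 0.9979, and inv ranked 8th of 10849 with 0.9973. The closest to ptc were zfh2 (0.9969), ft (0.9964) and mus205 (0.996). The closest to ci was cos (0.9942), followed by the receptor gene N (0.9941) and plum (0.9938), and ptc ranked 34th with 0.9883. These values are descriptions, since the libraries fall into 2 tissues of different library kinds and a gene that differs strongly between tissues is likened mainly by that difference.

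By position on BDGP6, en (2R, 11524006 to 11528210, minus strand) and inv (2R, 11474465 to 11509695, plus strand) lie 14310 bases apart with no tested gene between them. Their outer neighbours E(Pc), beside inv, and tou, beside en, were not called between tissues (adjusted p = 0.795 and 0.0796, edgeR), where en and inv were. The hh gene (3R, 23128169 to 23141906, minus strand) lies between CG31457 and unk, neither called in any of the 3 comparisons. The ptc gene lies at 2R, 8649649 to 8665223 (plus strand), beside CG8635 and Acsl, and Su(fu) at 3R, 12689873 to 12691468 (minus strand), beside kar and CG31347. None of the neighbours tested was called between genotypes in either tissue. Between tissues CG8635 (1.055, adjusted p = 0.00435) and kar (-2.56, adjusted p = 5.35e-04, edgeR) were called, but Acsl and CG31347 were not. The neighbours of smo, CG11555 (2.025) and CG3625 (1.43), were also called between tissues (adjusted p = 4.18e-04 and 0.00232, edgeR). Beside fu, CG6659 was not called between tissues and lncRNA:CR45514 was not tested there. The ci gene lies on chromosome 4 (47710 to 57041, minus strand), where 11 of 79 tested genes were called lower and 2 higher in mutant salivary glands, with a median of -0.15, beside 4.96% lower, 5.71% higher and a median of -0.04 over all genes. Its neighbour RpS3A was at -0.15 and was not called (adjusted p = 0.455, edgeR). The smo gene (2L, 277582 to 282167, plus strand) shares 12.4% of its exon bases with CG11601 and 14.6% with CG17078 on the opposite strand. The fu gene (X, 18657755 to 18661204, plus strand) shares 6.06% with CG6696, and ci 0.938% with asRNA:CR43957, also on the opposite strand. Reads from those stretches cannot be assigned with certainty, because the sources used here do not say whether counting used the strand.

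The authors' deposited table for salivary glands gave log2 fold changes of -0.94 for ci (false discovery rate 0.0407), -1.34 for hh (0.0228) and -0.50 for ptc (0.438). In the authors' deposited table hh thus passed 0.05 and ptc did not, with estimates close to those above, and 16.5% of its 11021 genes passed. The authors' deposited table for wing discs had no member with a false discovery rate under 0.59, and 13.1% of its genes passed 0.05. Its estimates for ci (0.02), ptc (-0.03), smo (0.03) and fu (0.0011) were smaller in size than those above. The others were 0.21 for hh, 0.30 for en, 0.23 for inv and 0.14 for Su(fu). Cap-D3 passed there, at -2.60 (false discovery rate 2.0e-23), where the edgeR test above did not call it.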

How the data were processed

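The authors deposited raw counts for each gene in 11 libraries. Tools listed in the submitters' processing notes were HTSeq 0.6.1, TopHat2 2.0.8b and BWA, with Picard 1.119, Trim Galore 0.3.3 and FastQC 0.11.3, on BDGP6. Per the labels' protocols, reads were 50 bp paired ends; the protocol counts 8 samples where 11 are listed. For each tissue the authors deposited a table that, per the file headers, holds log2 fold changes and log2 mean CPM, a likelihood ratio score, a false discovery rate and its unadjusted p-value; the sources used here do not name the tool, and the sign of Cap-D3 shows mutant over wild type. The deposited gene lists were not used.

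Counts were fitted with edgeR 4.0.16 in R 4.3.3: filterByExpr (minimum count 10, minimum total 15), TMM, and the robust, legacy quasi-likelihood F-test, for each tissue, for wild-type tissues and, for the interaction, on all 11 libraries. Adjusted p-values are Benjamini-Hochberg over all genes tested. Errors after ± on a log2 fold change are standard errors. Printed CPM use 1 TMM scale for all libraries, whereas each fit uses its own; the ratio between libraries of a tissue differs between them by up to 1.14 times in salivary glands and 1.22 times in wing discs. Exon lengths, positions and overlaps came from the Ensembl 115 annotation of BDGP6, where the 8 genes have the positions of the count table. Pairs of libraries of a group had chi-square values of 22.3 to 1801 for each degree of freedom, so none was a copy of another. The lowest value was that of the 2 mutant wing disc libraries, and the other pairs lay at 166.3 to 1801. These values do not show whether 2 libraries came from 1 RNA sample. Likeness used log2 CPM with a prior of 0.5. The fits were also run on simulated data with less spread than these libraries and no library that stood apart. That run does not show how the fits behave here.

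The members, gene lists and tests were chosen with earlier results of these data known. The text names all 8 members, Cap-D3, the called genes of each pathway list (or up to 2 of highest CPM), the 3 genes most like hh, ptc, ci and en, and the nearest tested neighbours; some uncalled or repeated genes are given for 1 comparison only. Alternatives were other scaling (DESeq2 1.42.0 size factors), no filter, DESeq2, other dispersion settings, 1 fit of all libraries, and leaving out each library. Marker sums describe the tissue and were not tested as sums.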

Additional observations from a re-analysis of the deposited data

How the results depend on the processing

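Of 104 salivary gland values of members under alternatives, 88 kept their direction and side of the threshold, 13 lost the call and 3 gained it; all 104 values between wild-type tissues kept both. The 2 salivary calls became 1 without scaling factors or without the low count filter, 4 with DESeq2 and 0 in 1 fit of all 11 libraries, and 0 to 3 without 1 library. Genes called in salivary glands were 2091 with DESeq2 and 310 to 1071 without 1 library, and 62.3% of calls were higher without scaling factors, against 53.5%. Genes called in wing discs were 583 with DESeq2, 77 with non-legacy dispersions, 140 in the fit of all libraries and 0 to 45 without 1 library; members stayed at 0. Interaction calls were 616 with DESeq2 and 7 to 262 without 1 library, with 0 to 1 member. Without 1 library the wing values ranged from -0.66 to 0.20 for ptc, -0.66 to 0.28 for ci, -0.39 to 0.19 for smo and -0.223 to 0.086 for fu. The interaction of ptc, near 0, was 0.13 with RLE factors, 0.038 without scaling, 0.13 with DESeq2 and -0.20 to 0.66 without 1 library; that of fu was -0.018 without the filter and -0.049 to 0.32 without 1 library. Without scaling, none of the 6 pathway genes called lower in wing discs kept its call; CkIalpha was 0.15, and the others ran from -1.11 for Pka-C1 to -0.12 for rdx. The causes were not tested. No paired analysis was possible because the labels give the groups no shared replicate number. Salivary en rests on as few as 6 counts, in the mutant library with the most counts of that tissue.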
